A study of Mus musculus with 12 samples.

Results

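The transition described here is that of CIDEA KO mouse ESCs (embryonic stem cells) from the naive state at 0 h to 3D spheroids at 24 h. It was followed in 4 mRNA libraries, 2 from KO ESCs and 2 from KO spheroids, chosen by their labels out of 12 libraries in the series. The other libraries came from WT cells at 0 h, 24 h and 48 h and from KO spheroids at 48 h, again with 2 libraries per group. WT (labelled "Wild type") was the parental R1 line, and KO (labelled "Cidea -/-") was a subclone of R1, 19.7, from which CRISPR-Cas9 had removed the whole *Cidea* locus. Every KO library came from this clone, so the loss of *Cidea* and other properties of the clone cannot be told apart. ESCs of both genotypes were grown with LIF (leukaemia inhibitory factor) and collected with TrypLE, a cell dissociation enzyme. Spheroids of both genotypes were grown without LIF, in more serum and in growth factor-reduced Matrigel, a basement membrane extract that was broken down on ice to free them. The labels describe the spheroids as embedded, while the study's methods describe, for molecular work, cells seeded on a Matrigel coat under medium with dilute Matrigel. Time, loss of LIF, Matrigel, serum and the way of harvest therefore cannot be told apart in any comparison of 24 h with 0 h. The study describes the 2 libraries of a group as independent samples and biological replicates, and the labels say no more of their origin. In the fit of all libraries, the p-values rest on the spread between samples within groups, estimated over all 12 libraries together. In bulk RNA, fewer cells of a type and less RNA per cell cannot be told apart.

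Naive ESCs resemble the epiblast of the pre-implantation embryo and are held in that state by LIF, which acts through its receptor and gp130 on the transcription factor STAT3 and so sustains factors such as ESRRB, KLF4 and TFCP2L1. When LIF is withdrawn, FGF and ERK signalling drives cells through a formative to a primed state, in which OTX2, POU3F1 and the de novo DNA methyltransferases are expressed while OCT4 (*Pou5f1*) is kept. In Matrigel the cells also polarize and build a rosette that opens a lumen. CIDEA is a protein of the lipid droplet surface that helps droplets to fuse.

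The labels were checked against the expected genes first. *Cidea* (chromosome 18) had 0 estimated counts in all 4 KO libraries, where a floor of 3 counts corresponds to between 0.088 and 0.1041 CPM (counts scaled to the same total in every library). WT ESCs held 89 and 67 counts of it and WT spheroids at 24 h held 117 and 46. The pluripotency gene *Pou5f1* (OCT4) was at 1280 and 1340 CPM in KO ESCs and at 1410 and 1310 CPM in KO spheroids. *Sox2*, its partner, was at 467 and 473 CPM and then at 393 and 414 CPM. Both were thus expressed at a high level in all 4 libraries.

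KO ESC libraries held 28.9 and 28.8 M estimated counts and KO 24 h libraries 33.6 and 34.1 M. Replicate 1 of KO spheroids at 24 h stood apart. At equal depth it detected 15473 genes, against 19268 in replicate 2, 19057 and 18638 in KO ESCs and between 17635 and 19672 in the 11 other libraries. Among 2230 genes with a mean of 0.3 to 1 CPM in the other libraries, 52.5% had no count in replicate 1, against 1.88% to 17.0% elsewhere. At 1 to 3 CPM the share was 21.0% against 0.591% to 3.01%, and at 3 to 10 CPM it was 2.54% against 0.129% to 0.516%. A total of 2625 genes differed by over 4-fold between the KO 24 h replicates, of which 2173 were lower in replicate 1, while the other groups held 676 to 1547 such genes. The loss of counts was thus largest in low genes, but higher genes were affected too. At an average log2 CPM of 5 or more, the log2 difference between replicates had a standard deviation of 0.302 in this group. In the other groups it was 0.138 to 0.21. Each comparison is given with and without replicate 1.

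**Figure D1:**
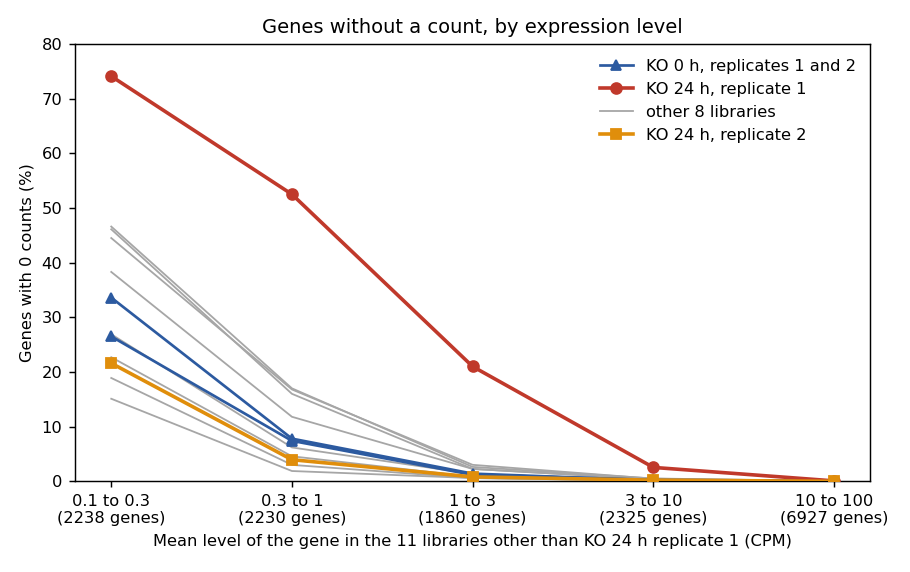
Share of genes with 0 counts in each library (vertical axis, %), for genes grouped by their mean level in the 11 libraries other than KO 24 h replicate 1 (horizontal axis, CPM). Lines join the values of a library. Replicate 1 of KO spheroids at 24 h lies above the others in every group of genes, at 52.5% for genes of 0.3 to 1 CPM.

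Over 24 h, 3236 of 17424 genes tested (18.6%) changed in KO cells at an adjusted p under 0.05. Tests were made with edgeR (quasi-likelihood), and p-values were adjusted over all genes tested after Benjamini-Hochberg. Of these, 1610 (9.24%) were higher and 1626 (9.33%) lower at 24 h, and 339 rose and 457 fell by more than 2-fold. The shares of 9.24% and 9.33% are the background for list members counted below in KO cells in the fit of all libraries. For counts in WT cells the background is 7.54% higher and 7.47% lower. Counts with a library left out go with the shares of their own fits, which differ. Without replicate 1, 2575 of 18683 genes (13.8%) were called, 1311 (7.02%) higher and 1264 (6.77%) lower. The 2 sets of calls shared 2234 genes, 69.0% of the first and 86.8% of the second, all with the same sign. Genes called only with replicate 1 also had the same sign without it. Equal signs are no separate support, because the 2 fits shared all other libraries. In called genes the ESC and spheroid libraries did not overlap, so leaving 1 out could hardly turn a sign. At an average log2 CPM of 2 or more, 3098 genes were called, of which 69.8% were called without the library, and of the 138 calls below that level 52.9% were. The count was 2013 without KO ESC replicate 1, 1785 without KO ESC replicate 2 and 5142 without KO 24 h replicate 2, so that it depended on each of these libraries. In all 3236 called genes the ESC and spheroid libraries did not overlap in CPM, as they did not in 55.1% of all genes tested. In WT cells 2615 genes (15.0%) changed over the same interval, 1313 (7.54%) higher and 1302 (7.47%) lower. Of the calls, 1915 were shared by the genotypes (59.2% of the KO and 73.2% of the WT calls), and all had the same sign in both.

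The largest rise in KO cells was that of *Cxcl12*, the gene of a secreted chemokine (chromosome 6, 117168535 to 117181367 on GRCm38). It was at 0.243 and 0.42 CPM in KO ESCs and at 38.3 and 37.3 CPM in spheroids, which was a rise by 6.82 on the log2 scale (standard error 0.281, adjusted p = 1.7e-12). *Cyp1a1*, a cytochrome P450 induced through the aryl hydrocarbon receptor, was at 0.209 and 0.21 CPM and then at 12.5 and 11 CPM (log2 fold change 5.79, standard error 0.543, adjusted p = 2.9e-07). For both, the spheroid libraries lay close together and far above the ESC libraries. *Dll1*, a ligand of Notch, was at 0.417 and 0.28 CPM and then at 7.32 and 4.26 CPM (log2 fold change 4.04, adjusted p = 5e-06). *Lef1*, a transcription factor that acts with β-catenin, went from 0.73 and 1.16 CPM to 15.8 and 12 CPM (log2 fold change 3.88, adjusted p = 1.4e-09). *Irgm1*, an interferon-induced GTPase, differed most between the spheroid replicates of these genes, at 16.3 and 7.08 CPM, above 0.382 and 0.56 CPM in ESCs. Its log2 fold change was 4.62 with replicate 1 and 3.90 without it. The other 5 of the 10 largest rises were *Vrtn* (5.54), *Enpp2* (4.06), which encodes autotaxin, the carbonic anhydrase *Car4* (4.04), the homeobox gene *Nkx2-9* (3.96) and the cyclin gene *Ccno* (3.86), all log2 fold changes. The 10 genes were chosen as called higher without replicate 1 too, where they rose by 3.26 to 6.79, so this is no separate support. All 10 rose in WT cells. In WT ESCs *Cyp1a1* had 0 counts in both libraries.

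The largest fall was that of *Egr1*, an immediate early transcription factor downstream of ERK. It was at 109 and 110 CPM in KO ESCs and at 0.0293 and 0.588 CPM in spheroids (log2 fold change -8.45, standard error 0.695, adjusted p = 0.0002). The spheroid values rest on 1 and 20 counts, and without replicate 1 the log2 fold change was -7.54 (adjusted p = 0.0011). *Trpm1*, a cation channel gene, was at 13.9 and 18.2 CPM and then at 0 and 5 counts (log2 fold change -7.70, adjusted p = 6.6e-05). *Vegfa*, the gene of the main vascular growth factor, was at 46.4 and 47.9 CPM and then at 0.644 and 3.12 CPM (log2 fold change -4.65, standard error 0.571, adjusted p = 0.00067). In these 3 genes the lower spheroid value was that of replicate 1, as in *Grm4*, a glutamate receptor gene, which had 0 counts there and 1.09 CPM in replicate 2 after 12.1 and 13.7 CPM in ESCs. *Grm4* (log2 fold change -4.56, adjusted p = 0.031) was not called when either ESC library was left out (adjusted p of 0.104 and 0.118). *Chac1*, which encodes an enzyme that degrades glutathione, was at 31.1 and 29.8 CPM and then at 0.937 and 2.47 CPM (log2 fold change -4.16, adjusted p = 1.6e-06). *St8sia6*, a sialyltransferase gene, fell from 34.6 and 37.5 CPM to 1.85 and 2.2 CPM (log2 fold change -4.15, adjusted p = 3.3e-10), with replicates close together at each time. The remaining large falls were those of *Socs3*, described below with LIF signalling, *Ripply3*, a transcriptional corepressor (-3.42), *Serpinb6c*, a protease inhibitor (-3.36), and the keratin gene *Krt17* (-3.30). *Serpinb6c* and *Krt17* have close paralogs among which reads can be split, so their values are uncertain. These 10 were likewise chosen as called lower without replicate 1, where they fell by 2.94 to 7.54 on the log2 scale. In WT cells all but *Grm4* (-2.24, adjusted p = 0.232) fell too.

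**Figure D2:**
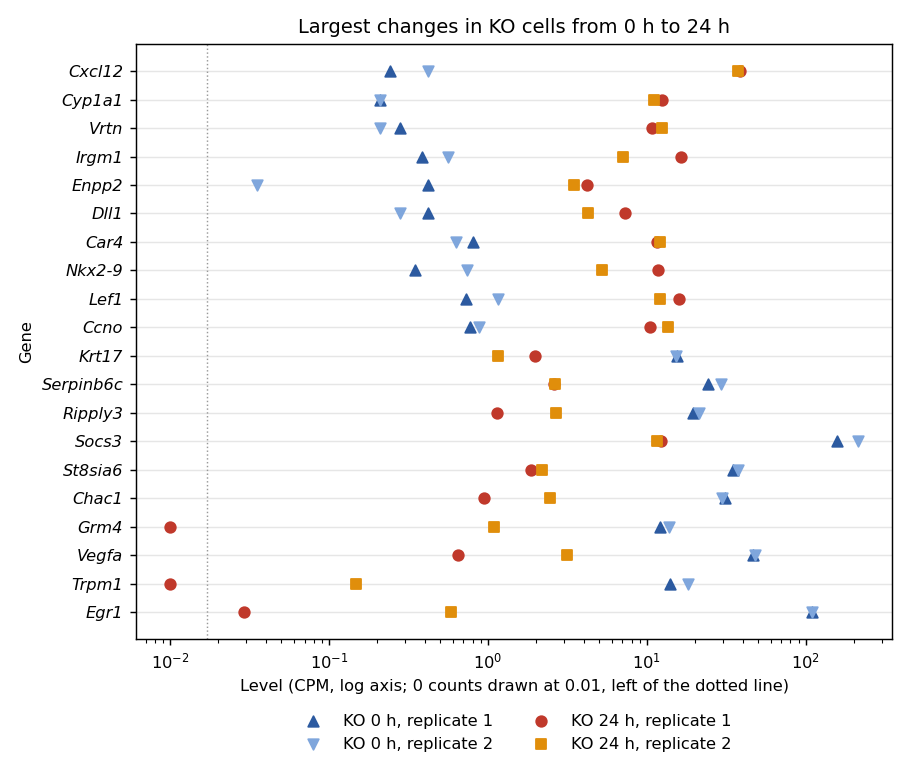
Level of the 10 genes that rose most and the 10 that fell most in KO cells, in each of the 4 KO libraries (horizontal log axis, CPM). Values of 0 are drawn at 0.01 CPM. The 20 genes were chosen among those whose ESC and spheroid libraries do not overlap, which held for 55.1% of all genes tested, and replicate 1 of the spheroids is the lower of its pair for *Egr1*, *Trpm1*, *Vegfa* and *Grm4* among others.

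Naive pluripotency factors fell. Of 14 tested, 12 were lower and 1 was higher, with a median log2 fold change of -1.18 against -0.03 over all genes, and 11 were lower without replicate 1. *Tfcp2l1* (chromosome 1, 118627945 to 118685168), a target of STAT3 that upholds self-renewal, was at 425 and 414 CPM in KO ESCs and at 76.9 and 102 CPM in spheroids (log2 fold change -2.23, standard error 0.126, adjusted p = 1.1e-08). *Esrrb* (chromosome 12, 86361117 to 86521628), an orphan nuclear receptor, was at 1090 and 1140 CPM and then at 388 and 411 CPM (log2 fold change -1.48, standard error 0.0696, adjusted p = 1.3e-11). The groups were far apart for both genes. *Tcl1*, a coactivator of AKT, went from 138 and 158 CPM to 35.7 and 33.3 CPM (log2 fold change -2.10, adjusted p = 9.5e-11). *Klf4* went from 512 and 492 CPM to 136 and 137 CPM (-1.88, adjusted p = 1.8e-11). *Nanog* fell less, from 475 and 471 CPM to 241 and 277 CPM (-0.87, adjusted p = 2.3e-07). *Prdm14*, a repressor of primed genes, was at 12.3 CPM in replicate 1 and 21.2 CPM in replicate 2 after 31.5 and 28.8 CPM in ESCs. Its fall (-0.85, adjusted p = 0.024) did not pass without replicate 1 (-0.51, adjusted p = 0.181) or without either ESC library (adjusted p of 0.125 and 0.074). The member that rose was *Fgf4*, the FGF ligand that ESCs make themselves, from 237 and 232 CPM to 292 and 326 CPM (0.40, adjusted p = 0.0022). *Dppa3* was at 0.591 to 1.97 CPM in the 4 libraries and did not pass. In WT cells 10 of the 14 were lower and 1 higher, with a median of -1.17.

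Of 13 general pluripotency factors tested, 6 were higher and 1 was lower, with a median log2 fold change of 0.16, and the same numbers were called without replicate 1. *Pou5f1* (0.05, adjusted p = 0.683) and *Sox2* (-0.22, adjusted p = 0.066) did not pass, from the levels given above, although *Sox2* did with DESeq2 and with at least 10 counts in every library (-0.21, adjusted p = 0.041 in both). *Lin28a*, an RNA-binding protein that blocks maturation of let-7 miRNAs, rose from 169 and 167 CPM to 477 and 493 CPM (1.53, standard error 0.0668, adjusted p = 4.2e-12). *Utf1* was at 199 and 205 CPM and then at 370 and 305 CPM (0.74, adjusted p = 1e-05). *Tdgf1*, a coreceptor of Nodal, fell from 768 and 798 CPM to 421 and 387 CPM (-0.95, adjusted p = 4.8e-09).

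Genes of LIF and STAT3 signalling fell with the naive factors. None of 15 tested was higher and 9 were lower (8 without replicate 1), with a median log2 fold change of -1.08, and in WT cells 10 were lower with a median of -0.96. *Socs3* (chromosome 11, 117966079 to 117970047), the feedback inhibitor that STAT3 induces, was at 158 and 213 CPM in KO ESCs and at 12.2 and 11.6 CPM in KO spheroids. Its log2 fold change was -3.96 (standard error 0.17, adjusted p = 4.3e-11), it was -4.00 without replicate 1, and WT cells went from 144 and 156 CPM to 12.1 and 10.1 CPM. *Bcl3*, a nuclear IκB protein, fell from 38.0 and 33.9 CPM to 5.59 and 7.14 CPM (-2.50, adjusted p = 4.5e-07). *Stat3* itself fell from 163 and 167 CPM to 95.3 and 80 CPM (-0.91, standard error 0.1, adjusted p = 1.6e-06). The receptor genes did not pass in the fit of all libraries: *Lifr* was at 144 and 135 CPM and then at 142 and 162 CPM (0.12, adjusted p = 0.405), and *Il6st* (gp130) at 105 and 113 CPM and then at 87.2 and 93.1 CPM (-0.27, adjusted p = 0.063). *Il6st* did pass with at least 10 counts in every library (-0.27, adjusted p = 0.043) and without KO 24 h replicate 2 (-0.31, adjusted p = 0.049).

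STAT proteins are known to bind the letters TTCNNNGAA, which read the same on both strands. Of 14 LIF and STAT3 genes with a promoter window (250 bases before to 50 after the start in RefSeq, GRCm38.p6), 2 (14.3%) held these letters, *Socs3* and *Cish*, against 2582 of 27025 genes (9.55%) and 8.3% of all windows. A match is a description and not a binding site. The 30 bases around the matches are shown because *Socs3* fell most of this list while *Cish*, another feedback inhibitor, did not pass, at 5.91 and 5.04 CPM and then 2.58 and 3.91 CPM (-0.76, adjusted p = 0.187). Capitals mark TTCNNNGAA. In *Socs3* (chr11:117969501-117969530, reverse strand) it began 154 bases before the start, in an intron of a longer GENCODE transcript. In *Cish* (chr9:107296654-107296683, forward strand) it began at the start and 11 bases after it, in the first exon of the GENCODE transcript.
Socs3: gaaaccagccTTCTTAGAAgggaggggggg
Cish: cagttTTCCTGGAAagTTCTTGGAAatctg

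Formative and primed factors rose. Of 18 tested, 15 were higher and 1 was lower, with a median log2 fold change of 1.61, and the same numbers were called without replicate 1 (median 1.69). In WT cells 16 were higher and 1 lower, with a median of 1.5. *Lef1*, given above among the largest rises, led the list. *Grhl2* (chromosome 15, 37233036 to 37363569), an epithelial transcription factor that opens enhancers, was at 8.9 and 7.81 CPM in ESCs and at 97.7 and 86.3 CPM in spheroids (3.46, standard error 0.115, adjusted p = 1.5e-13). *Otx2*, which directs OCT4 to new enhancers, rose from 29.9 and 25.6 CPM to 127 and 143 CPM (2.29, standard error 0.0996, adjusted p = 4.2e-12). *Fgf5*, a marker of the post-implantation epiblast, was low, at 0.209 and 0.735 CPM and then at 3.34 and 1.85 CPM (2.45, adjusted p = 0.0051), and its call was lost when the fit held only the groups compared (adjusted p = 0.157). *Sox3* (0.02, adjusted p = 0.994) and *Foxd3* (0.29, adjusted p = 0.265) did not pass. The member that fell was *Etv4*, an ETS factor induced by FGF, from 55.2 and 53.9 CPM to 43.5 and 33.7 CPM (-0.50, adjusted p = 0.027). It was no longer called when either ESC library or KO 24 h replicate 2 was left out, with adjusted p of 0.122, 0.109 and 0.158.

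**Figure D3:**
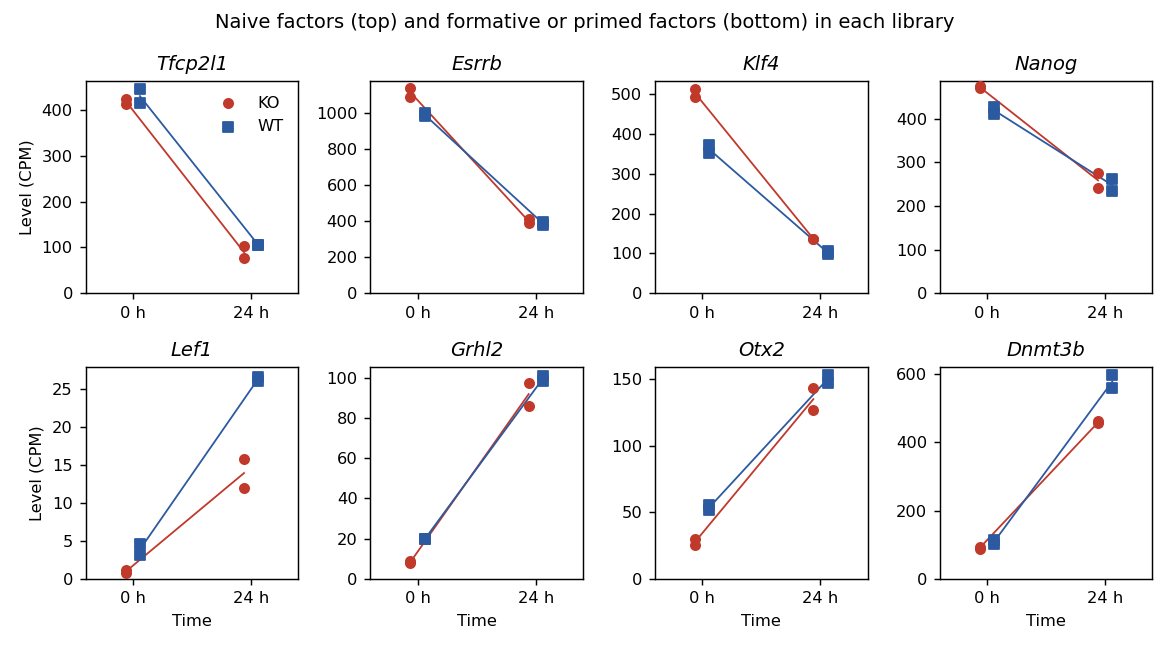
Level (vertical axis, CPM, from 0) of 4 naive factors (top) and 4 formative or primed factors (bottom) at 0 h and 24 h. Points are libraries, lines join the means of 2 libraries, and KO is red and WT blue. All 4 naive factors were lower and all 4 others higher at 24 h in both genotypes. The times did not overlap, which in KO cells held for 55.1% of all genes tested and for every called gene.

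Of 16 DNA methylation writers and erasers tested, 7 were higher and 2 were lower (7 and 1 without replicate 1). Also without either ESC library 1 was lower, and 3 were without KO 24 h replicate 2. The de novo methyltransferase genes rose, *Dnmt3b* from 92.5 and 88.5 CPM to 461 and 455 CPM (2.34, standard error 0.069, adjusted p = 3.1e-14) and *Dnmt3a* from 99.8 and 92.2 CPM to 378 and 372 CPM (1.97, adjusted p = 1.6e-13). *Dnmt1*, the maintenance enzyme, was at 409 and 402 CPM and then at 413 and 405 CPM (0.01, adjusted p = 0.942). *Tet2*, which oxidizes 5-methylcytosine, fell from 353 and 322 CPM to 145 and 222 CPM (-0.88, adjusted p = 0.0042), by 0.61 without replicate 1. It missed the threshold when the fit held only the groups compared (adjusted p = 0.052) and with limma (adjusted p of 0.057 and 0.062). *Tet1* was at 381 and 364 CPM and then at 241 in replicate 1 and 362 in replicate 2 (-0.30, adjusted p = 0.268; -0.62 and called without replicate 2), so that the lower value was that of replicate 1 for both *Tet* genes. The list's median was 0.19, and 9.24% of all genes tested were higher and 9.33% lower.

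Of 15 FGF and ERK feedback genes 6 were lower and 3 higher, with a median log2 fold change of -0.24, where 9.33% and 9.24% of all genes were. In WT cells 4 of the list were lower and 3 higher, with a median of 0.01, where 7.47% and 7.54% of all genes were. Without replicate 1, 7 were lower. The count of lower genes fell to 4 without KO ESC replicate 2 or KO 24 h replicate 2. Besides *Egr1*, the largest fall was that of *Fos*, which with JUN forms AP-1, from 9.11 and 9.77 CPM to 0 and 0.235 CPM (-6.28, adjusted p = 0.036). *Fos* was not called when any of the 4 KO libraries was left out, with adjusted p of 0.052 to 0.161. *Fgfr2*, an FGF receptor, rose from 2.54 and 1.65 CPM to 6.91 and 8.29 CPM (1.86, adjusted p = 0.00024), and the cyclin gene *Ccnd1* rose from 179 and 167 CPM to 327 and 322 CPM (0.91, adjusted p = 9.6e-08). *Dusp6*, a phosphatase that turns off ERK, was at 63.2 and 69.3 CPM and then at 56.7 and 38.8 CPM. It did not pass with both spheroid libraries (-0.47, adjusted p = 0.068) and did without replicate 1 (-0.78, adjusted p = 0.00071) and with DESeq2 (-0.46, adjusted p = 0.049).

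The immediate early and stress genes, which share *Egr1* and *Fos* with this list, numbered 12 lower and 2 higher of 20 tested, with a median log2 fold change of -1.16. Without replicate 1 the numbers were 11 and 2. Many of these genes respond within minutes to handling of cells, and ESCs and spheroids were harvested by different methods. The part of the harvest in this difference was not tested. *Chac1*, given above, is a target of ATF4, the transcription factor of the integrated stress response. The members that rose were *Gadd45a*, from 21.1 and 22.0 CPM to 50.3 and 44.0 CPM (1.13, adjusted p = 2.3e-06), and *Hmox1* (haem oxygenase), from 113 in both libraries to 144 and 155 CPM (0.40, adjusted p = 0.0036). The list was similar in number in WT cells, with 9 lower and 3 higher and a median of -1.11.

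In Nodal and BMP signalling, 7 of 17 genes were higher and 4 were lower (7 and 5 without replicate 1), with a median of 0.29. The Nodal antagonists fell, *Lefty2* from 163 and 160 CPM to 27.8 and 17.7 CPM (-2.82, standard error 0.177, adjusted p = 6.3e-07) and *Lefty1* from 52.7 and 43.9 CPM to 8.49 and 8.38 CPM (-2.52, adjusted p = 4.3e-11). *Nodal* itself was at 35.2 and 36.2 CPM and then at 41.4 and 45.9 CPM (0.29, adjusted p = 0.181). The ID genes, targets of BMP and SMAD signalling that bind and block bHLH factors, rose, *Id3* from 38.3 and 38.4 CPM to 157 and 162 CPM (2.06, adjusted p = 8.7e-11) and *Id1* from 86.9 and 78.3 CPM to 279 and 324 CPM (1.87, adjusted p = 2.1e-07). Of 18 Wnt pathway genes, 4 were higher and 3 lower, with a median of 0.07. For this list and the Nodal and BMP list, the background is 9.24% of all genes higher and 9.33% lower. The count of lower Wnt genes changed when a KO library was left out, as did the number of calls over all genes. The receptor gene *Fzd7* rose from 62.5 and 65.9 CPM to 151 and 120 CPM (1.08, adjusted p = 1.3e-07), and *Porcn*, which acylates Wnt ligands, from 39.0 and 30.2 CPM to 66.0 and 62.8 CPM (0.90, adjusted p = 0.00013). The secreted Wnt inhibitor *Sfrp1* fell from 247 CPM in both libraries to 106 and 107 CPM (-1.21, adjusted p = 9.9e-09), and the receptor *Fzd5* from 224 and 208 CPM to 124 and 130 CPM (-0.77, adjusted p = 1.2e-05). *Ctnnb1* (β-catenin) did not pass (-0.08, adjusted p = 0.422).

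Spheroids polarize in Matrigel, and 29 genes of apical polarity, junctions and the lumen were tested. Of these, 9 were higher and 2 were lower, with a median of 0.14, where 9.24% and 9.33% of all genes were. Without replicate 1, 8 were higher and 2 others lower, *Ezr*, the gene of ezrin (-0.29, adjusted p = 0.022), and *Crb3*, of the apical Crumbs complex (-0.95, adjusted p = 0.026), both named after their values were seen. No gene of the list was lower when either ESC library was left out. *Podxl*, the sialomucin of the apical membrane, rose from 49.5 and 47.0 CPM to 77.7 and 86.3 CPM (0.76, standard error 0.0964, adjusted p = 9.1e-06). The claudin *Cldn6* rose from 14.1 and 14.8 CPM to 42.4 and 36.7 CPM (1.45, adjusted p = 9.5e-08). *Cldn7* was at 6.01 and 4.8 CPM and then at 15.2 CPM in replicate 1 and 7.14 CPM in replicate 2 (1.04, adjusted p = 0.018), and was not called without replicate 1 (0.40, adjusted p = 0.446) or without either ESC library (adjusted p of 0.051 and 0.174). The falls were small, *Rab35* from 97.2 and 96.9 CPM to 77.7 and 77.6 CPM (-0.32, adjusted p = 0.02) and *Prkci* (atypical protein kinase C) from 222 and 235 CPM to 175 and 205 CPM (-0.27, adjusted p = 0.028). Both missed the threshold without replicate 1, at adjusted p of 0.053 and 0.31, and without either ESC library. *Pard3* did not pass (-0.18, adjusted p = 0.153).

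Integrins and basement membrane genes divided into 6 higher and 7 lower of 19 tested, with a median of -0.10, and into 5 and 5 without replicate 1. Among all genes tested, 9.24% were higher and 9.33% lower. The laminin gene *Lama1* fell from 146 and 125 CPM to 28.6 and 34.2 CPM (-2.11, standard error 0.139, adjusted p = 1.4e-09), and *Nid1*, which links laminin to collagen IV, from 280 and 282 CPM to 101 and 120 CPM (-1.35, adjusted p = 7.5e-07). *Lamb1* rose from 61.6 and 55.0 CPM to 91.3 and 94.3 CPM (0.67, adjusted p = 1.5e-05), and the fibronectin receptor *Itga5* from 71.9 and 61.3 CPM to 97.4 and 95.6 CPM (0.54, adjusted p = 0.0017). The *Itga5* call was lost without KO ESC replicate 2 (0.43, adjusted p = 0.055), with length offsets (adjusted p = 0.133) and with limma (adjusted p of 0.12 and 0.124). *Col4a1* did not pass (-0.18, adjusted p = 0.313). Subunits of the same laminin trimer thus moved in opposite directions. The higher genes numbered 3 without KO ESC replicate 2, and the lower genes 4 without KO ESC replicate 1.

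Lipid droplets are the organelle on which CIDEA acts, and of 29 genes of their coat, storage and lipolysis 3 were higher and 3 were lower in KO cells, with a median of -0.11. The numbers were the same without replicate 1, while 1 was higher without KO ESC replicate 1, 2 without KO ESC replicate 2 and 5 without KO 24 h replicate 2. With background shares of 9.24% and 9.33%, neither direction was far from that of all genes. *Fabp3*, a fatty acid binding protein gene, fell most, from 295 and 310 CPM to 44.0 and 40.8 CPM (-2.84, standard error 0.139, adjusted p = 1.9e-09). *Plin2*, the coat protein of most droplets, fell from 16.8 and 18.7 CPM to 8.61 and 6.32 CPM (-1.25, standard error 0.23, adjusted p = 0.00057). With average transcript lengths as offsets the value for *Plin2* was -0.40 (adjusted p = 0.605) and with limma on log2(TPM + 1) it was -0.47 (adjusted p = 0.44), so its call depends on how transcript lengths enter. *Fitm2*, which takes part in droplet formation, rose from 16.4 and 17.5 CPM to 31.1 and 32.4 CPM (0.90, adjusted p = 0.00092), and *Acsl4*, an acyl-CoA synthetase gene, from 44.5 and 50.3 CPM to 69.2 and 66.0 CPM (0.51, adjusted p = 0.0058). The *Acsl4* call was lost without KO ESC replicate 1 (0.42, adjusted p = 0.094). The lipase *Pnpla2* (ATGL; -0.11, adjusted p = 0.692) and *Plin3* (-0.11, adjusted p = 0.562) did not pass.

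Genes of fatty acid oxidation numbered 8 lower and 2 higher of 19 tested, with a median of -0.32. For this list and the synthesis list below, the background is 9.33% of all genes lower and 9.24% higher. Without replicate 1, 4 were lower and none higher, and without KO ESC replicates 1 and 2 in turn 5 and 3 were lower and none higher. The carnitine palmitoyltransferase genes, which bring fatty acids into mitochondria, led the falls, *Cpt1b* from 28.1 and 25.6 CPM to 5.33 and 4.11 CPM (-2.51, standard error 0.236, adjusted p = 2e-07) and *Cpt1a* from 145 and 142 CPM to 41.3 and 50.9 CPM (-1.63, adjusted p = 6.6e-09). Both fell without replicate 1 as well, by 2.71 and 1.5 on the log2 scale. The 2 that rose, *Cpt1c* (0.45, adjusted p = 0.043) and *Hadh* (0.26, adjusted p = 0.042), were no longer called without it (adjusted p of 0.64 and 0.231), nor without either ESC library. In cholesterol and fatty acid synthesis 9 of 32 genes were higher and 4 lower, with a median of 0.15, and 9 and 1 without replicate 1. Left-out ESC libraries gave 6 and 4 higher genes with 1 lower each. *Ebp*, a sterol isomerase gene, rose from 16.2 and 12.8 CPM to 29.9 and 30.0 CPM (1.05, adjusted p = 0.00056), and *Hsd17b7* from 8.97 and 11 CPM to 14.3 and 19.9 CPM (0.78, adjusted p = 0.023). *Hsd17b7* was not called without either ESC library or KO 24 h replicate 2 (adjusted p of 0.057 to 0.222). The stearoyl-CoA desaturase gene *Scd2* fell from 799 and 860 CPM to 464 and 460 CPM (-0.84, adjusted p = 9.6e-08). *Scd1* (-0.35, adjusted p = 0.039) was not called without replicate 1 (adjusted p = 0.243) or without either ESC library (adjusted p of 0.148 and 0.153).

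Autophagy and lysosome genes fell in larger number. Of 30 tested, 18 were lower and 2 were higher, with a median of -0.62 against -0.03 over all genes. Without replicate 1 the numbers were 17 and 2, and between 15 and 19 genes were lower with any 1 of the 4 KO libraries left out. *Tfeb* (chromosome 17, 47737030 to 47792419), the master regulator of lysosome genes, fell from 70.7 and 66.8 CPM to 10.7 and 12.8 CPM (-2.55, standard error 0.169, adjusted p = 1.5e-09), and its relative *Mitf* from 50.7 and 46.6 CPM to 13 and 20.7 CPM (-1.53, adjusted p = 3e-05). The third factor of this family, *Tfe3*, rose from 54.0 and 55.2 CPM to 88.9 and 98.2 CPM (0.78, standard error 0.098, adjusted p = 9.2e-06), as did *Gabarapl2*, a member of the LC3 family, from 124 and 115 CPM to 165 and 176 CPM (0.51, adjusted p = 0.00051). With limma *Tfe3* missed the threshold (adjusted p of 0.053 and 0.054), as *Gabarapl2* did with length offsets (adjusted p = 0.058). In WT cells 17 genes of the list were lower and 2 higher, with a median of -0.40, and *Tfeb* went from 84.0 and 91.8 CPM to 19.1 and 14.6 CPM.

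Glycolysis and hypoxia genes were lower in 16 and higher in 1 of 30, with a median of -0.37, and the same numbers were called without replicate 1, while 2 were higher without KO 24 h replicate 2. *Vegfa*, given above, and *Egln3*, an oxygen-sensing prolyl hydroxylase gene, led the falls. *Egln3* went from 11.5 and 16.1 CPM to 1.93 and 2.41 CPM (-2.67, standard error 0.326, adjusted p = 6.2e-06). *Slc16a3*, a lactate exporter gene, rose from 141 CPM in both libraries to 289 and 236 CPM (0.89, adjusted p = 0.00026). *Ldha* did not pass (0.01, adjusted p = 0.944). Of 18 enzymes of threonine, glycine, serine and one-carbon metabolism, 10 were lower and 4 were higher, with a median of -0.56, and 10 and 2 without replicate 1. Without KO ESC replicate 2, 10 were lower and 1 was higher. *Phgdh*, the entry enzyme of serine synthesis, fell from 142 and 164 CPM to 51.4 and 54.2 CPM (-1.53, standard error 0.124, adjusted p = 3.2e-08). *Shmt2* fell from 428 and 445 CPM to 190 and 162 CPM (-1.31, adjusted p = 2e-09), and *Tdh*, the threonine dehydrogenase on which mouse ESCs rely, from 696 and 697 CPM to 339 and 316 CPM (-1.09, adjusted p = 2.2e-10). *Tdh* is outside the rule for named genes and was chosen after its values were seen. *Mthfd1* rose from 271 and 275 CPM to 370 and 382 CPM (0.46, adjusted p = 4.1e-05).

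Cell cycle genes changed in 11 of 26, 7 higher and 4 lower, with a median of 0.04, and in 6 and 2 without replicate 1. The lower genes also numbered 2 without either ESC library. *Ccnd2* (cyclin D2) rose from 1.11 and 0.665 CPM to 14.1 and 9.87 CPM (3.75, standard error 0.323, adjusted p = 6.1e-08), and the imprinted CDK inhibitor gene *Cdkn1c* from 18.1 and 15.2 CPM to 82.1 and 78.6 CPM (2.27, adjusted p = 2e-10). Another CDK inhibitor gene, *Cdkn1b*, fell from 66.2 and 59.5 CPM to 38.7 and 34.7 CPM (-0.78, adjusted p = 7e-05). *Cdk6* (-0.75, adjusted p = 0.021) was not called without replicate 1 (adjusted p = 0.153) or KO ESC replicate 1 (adjusted p = 0.257), and it was at -0.10 with length offsets (adjusted p = 0.904) and -0.04 with limma (adjusted p of 0.952 and 0.956). Of 24 p53 targets 8 were higher and 2 lower, with a median of 0.24, and 11 and 2 without replicate 1. Without KO ESC replicate 2, 7 were higher and 1 was lower. In WT cells 3 were higher and 2 lower, a difference between the genotypes that was tested gene by gene only and gave no call in this list. Of all genes tested, 9.24% were higher and 9.33% lower in KO cells, and 7.54% and 7.47% in WT cells. *Sesn1* rose from 13.2 and 14.7 CPM to 27.9 and 29.3 CPM (1.03, adjusted p = 8.8e-05), and *Aen*, an exonuclease gene, from 128 CPM in both to 217 and 208 CPM (0.73, adjusted p = 1.4e-06). The BH3-only gene *Pmaip1* fell from 58.3 and 60.8 CPM to 22.8 and 24.0 CPM (-1.35, adjusted p = 8.3e-07). *Cdkn1a* (p21), from 44.2 and 54.5 CPM to 39.2 and 31.7 CPM (-0.48, adjusted p = 0.017), was not called without KO ESC replicate 2 or KO 24 h replicate 2 (adjusted p of 0.322 and 0.117).

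**Figure D4:**
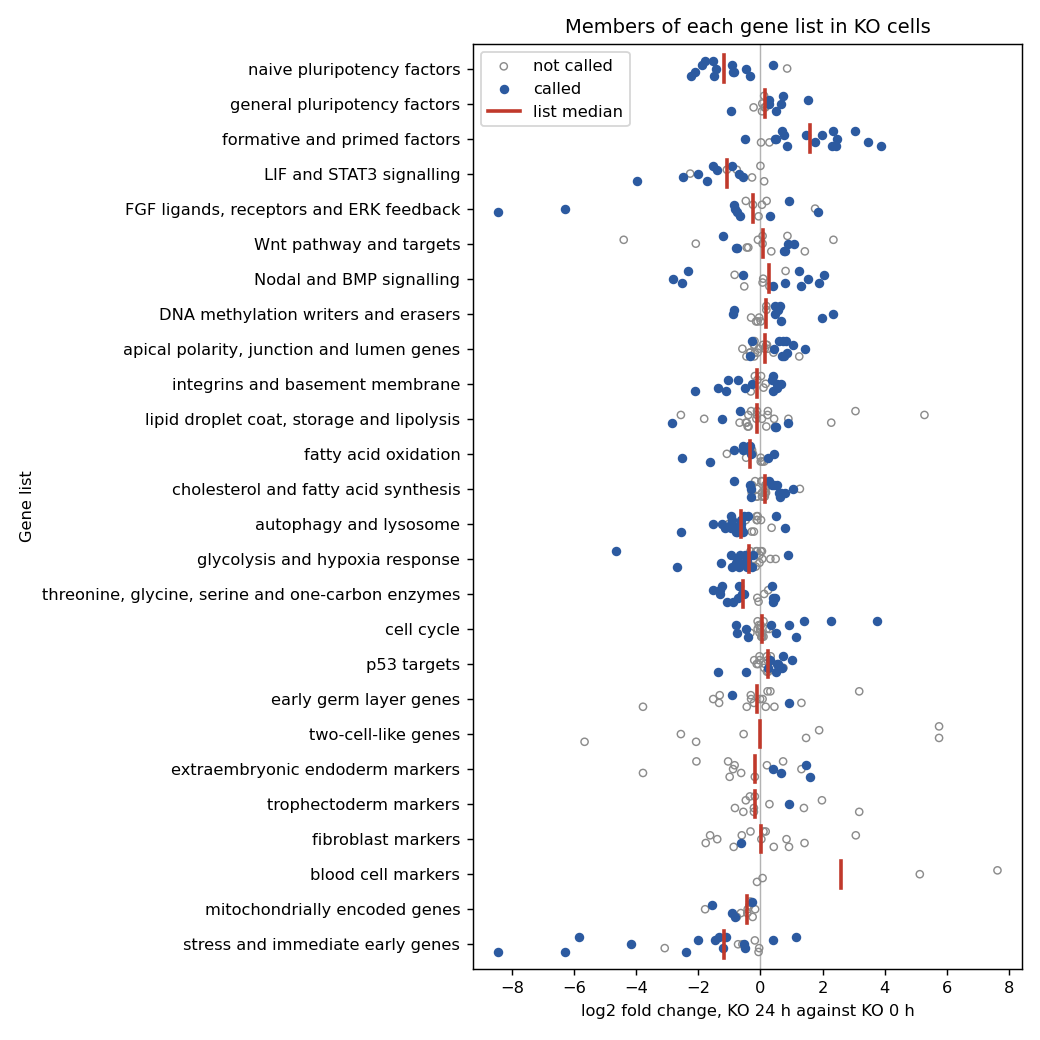
Log2 fold change of each tested member of the gene lists in KO cells, 24 h against 0 h (horizontal axis). Filled points passed edgeR's test at an adjusted p under 0.05, open points did not, and red bars are list medians. The naive, LIF and STAT3, and stress and immediate early lists have medians of -1.18, -1.08 and -1.16, and the formative and primed list one of 1.61. Genes with 0 counts in all 4 libraries are not drawn.

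Most markers of other cell types did not pass, and their summed levels differed between the lists. Early germ layer genes summed to between 59.2 and 65.0 CPM in the 4 KO libraries, with 10 of 21 under 1 CPM in all of them. Of 18 tested, *Eomes* rose (0.92, adjusted p = 0.0067; not called without replicate 1, adjusted p = 0.124) and the neural gene *Sox1* fell (-0.90, adjusted p = 0.017). *Eomes* also lost its call without KO ESC replicate 1 (adjusted p = 0.111), and *Sox1* without either ESC library or KO 24 h replicate 2 (adjusted p of 0.075 to 0.146). Both lost it with length offsets and with limma. Extraembryonic endoderm markers summed to 338 and 312 CPM and then to 394 and 399 CPM, with 4 of 15 higher and none lower. Of all genes tested, 9.24% were higher and 9.33% lower. Higher and lower genes numbered 4 and 1 without replicate 1, 4 and 2 without KO 24 h replicate 2, and 2 and 0 without KO ESC replicate 2. Among them were the endocytic genes *Dab2*, from 1.95 and 2.42 CPM to 7.41 and 5.76 CPM (1.59, adjusted p = 0.00062), and *Cubn*, from 3.86 and 2.45 CPM to 7.0 and 10.6 CPM (1.48, adjusted p = 0.0041). *Cubn* was not called without KO ESC replicate 2 (1.19, adjusted p = 0.088). The defining factors *Gata4* (2.37 to 6.88 CPM), *Gata6* (0.452 to 1.54 CPM), *Sox17* (0.139 to 1.17 CPM) and *Sox7* (1.89 to 2.85 CPM) were low in all 4 libraries and none passed. Trophectoderm markers summed to between 55.9 and 63.5 CPM, with *Eomes* as the 1 call of 12 and *Tpbpa* at 0 counts. Fibroblast markers summed to 207 and 210 CPM and then to 147 and 151 CPM, mostly *Vim*, which fell from 152 and 161 CPM to 106 and 98.0 CPM (-0.62, adjusted p = 1.5e-05; -0.43 with length offsets, adjusted p = 0.054), while *Postn* was at 0 counts. Blood cell markers summed to between 30.3 and 41.2 CPM with no call among 4 tested, and 2-cell-like genes to between 1.4 and 3.22 CPM with no call among 9 tested. Without replicate 1, 2 of the 2-cell-like genes passed. Calls among trophectoderm and fibroblast markers also depended on KO 24 h replicate 2, as did the number of calls over all genes. RNA of the 13 mitochondrially encoded genes summed to 38600 and 30100 CPM in KO ESCs and to 23500 and 25400 CPM in spheroids. Of these, 4 were lower in the fit of all libraries, none without KO ESC replicate 1 or KO 24 h replicate 1, and 3 without either of the others.

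Whether the change over 24 h differed between KO and WT cells was tested with an interaction term in the same fit, and 2 of 17424 genes (0.0115%) passed, while 1029 had an unadjusted p under 0.05. *Pou3f1* (chromosome 4, 124656807 to 124660655), a POU factor of the primed epiblast, was at 5.08 and 3.99 CPM in KO ESCs and at 14.6 and 16.3 CPM in KO spheroids. WT cells went from 3.3 and 2.28 CPM to 40.6 and 32.4 CPM. The rise was thus smaller in KO cells (1.76 against 3.71 on the log2 scale, difference -1.94, standard error 0.243, adjusted p = 0.0029), and at 24 h both KO libraries lay below both WT libraries. Without replicate 1 the difference was -1.87 (adjusted p = 0.00099). *Grhl2* rose more in KO cells (3.46 against 2.34, difference 1.12, standard error 0.151, adjusted p = 0.0044). WT cells went from 19.6 and 19.7 CPM to 98.4 and 101 CPM, so that KO cells began lower and ended close to WT. Its call was lost without KO ESC replicate 2 (1.03, adjusted p = 0.077) and without WT 24 h replicate 1 (1.09, adjusted p = 0.055), and both calls were lost when the fit held only the groups compared, at adjusted p of 0.093 for *Grhl2* and 0.106 for *Pou3f1*. Neither was called with length offsets, at adjusted p of 0.124 for *Pou3f1* and 0.581 for *Grhl2*. Nor were they with limma on log2(TPM + 1) and log2(TPM + 0.1) (0.833 and 0.632 for *Pou3f1*, 0.833 and 0.834 for *Grhl2*). Of the other genes named here *Otx2* (0.80, adjusted p = 0.058), *Lin28a* (0.51, adjusted p = 0.084) and *Phgdh* (-0.93, adjusted p = 0.103) came nearest in the main fit but did not pass. The number of genes whose change differed was 1070, of which 921 had the lower change in KO, when KO 24 h replicate 2 was left out and replicate 1 stood alone for KO spheroids, 5 without replicate 1, 8 without WT ESC replicate 1, 5 without WT 24 h replicate 2 and 1 without KO ESC replicate 2 or WT 24 h replicate 1.

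**Figure D5:**
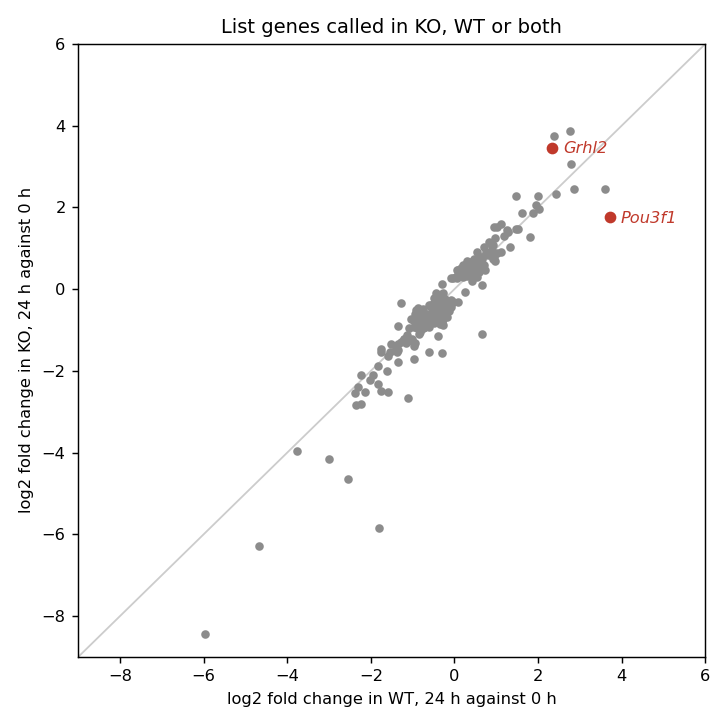
Log2 fold change from 0 h to 24 h in WT (horizontal axis) and KO cells (vertical axis) of the 242 list genes called in either genotype, with the line of equal change. *Pou3f1* lies to the right of the line and *Grhl2* above it, and these 2 (red) passed the test of the difference.

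The values at 24 h can be set beside those of KO spheroids at 48 h, which were compared with the same 2 ESC libraries and so share them. The median log2 fold change against 0 h was -1.18 at 24 h and -2.19 at 48 h for naive factors, and 1.61 and 2.56 for formative and primed factors. For LIF and STAT3 genes it was -1.08 and -1.27, and for the stress and immediate early genes -1.16 and -1.13. For autophagy and lysosome genes it was -0.62 and -0.55, for glycolysis and hypoxia genes -0.37 and -0.24, and for threonine, glycine, serine and one-carbon enzymes -0.56 and -0.25. For fatty acid oxidation it was -0.32 and -0.38, for cholesterol and fatty acid synthesis 0.15 and 0.42, and for lipid droplet genes -0.11 and 0.00. The medians of naive and of formative and primed factors were further from 0 at 48 h than at 24 h, and metabolic lists moved either way. These differences were not tested.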

How the data were processed

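RNA was sequenced as paired-end mRNA libraries from a strand-marking kit. Per the labels, the authors used Trimmomatic 0.33 to trim reads, and kallisto 0.43.1 with mm10 (GRCm38) to estimate transcript abundance. The transcript set is not given in the sources used here. The deposited tables hold, per transcript, the estimated count (not scaled) and TPM, which the authors' tool scales by length and to a fixed total per library.

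Of 115270 transcripts, 113580 (98.5%) matched GENCODE M21 by identifier and the rest, 0.659% to 0.709% of counts, were left out. Estimated counts were summed over 35580 genes and rounded. Kallisto divides reads among similar sequences, so values of paralogs and overlapping genes are uncertain. Totals were 28.8 to 38.2 M per library. A floor of 3 counts is given for zeros. It covers counting error only, as no molecular identifiers were used. Replicates of the KO groups at 0 h and 24 h differed by more than sampling noise (chi-square of 11.1 to 32.7 per degree of freedom).

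The test was run in edgeR (4.0.16, under R 4.3.3) after TMM scaling and filterByExpr, with robust quasi-likelihood dispersions and 1 mean for each of the 6 groups over all 12 libraries. P-values were adjusted over all genes by the Benjamini-Hochberg method with a threshold of 0.05. Without KO 24 h replicate 1, the lone library of its group is assumed to vary like the other groups. Counts were also simulated for KO 24 h against KO 0 h (17424 genes), with fewer changed genes than in the data. The changed genes were drawn from those with a mean over 2 CPM, so recovery of lower genes was not tested. Each gene had the same spread in all libraries, so the many zeros of the real replicate 1 were not copied. The simulation therefore cannot show what keeping or dropping that library does. In these counts edgeR recovered 71 of 100 genes changed by 1 on the log2 scale and 87 of 100 changed by 2, with 12 false calls. Without KO 24 h replicate 1 it recovered 67 and 82, with 19 false calls.

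Alternatives were DESeq2 1.42.0, its size factors in edgeR, no filter, at least 10 counts in every library, only the groups compared, each library left out, a replicate block, average transcript length offsets, limma 3.58.1 on log2(TPM + 1) and log2(TPM + 0.1) for genes with a mean TPM of at least 1, and the number of genes detected as a covariate. DESeq2 and the length offset without replicate 1 were added after the values were seen.

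The members and gene lists were chosen with earlier results of these data known. Genes named were the 10 largest rises and falls among protein-coding genes called with and without replicate 1, whose average log2 CPM was 2 or more, with no overlap between groups, genes called in the interaction, up to 2 rises and 2 falls per list with defining members that did not pass, and 9 genes the study names. Of these, 1 gene is not reported here.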

Additional observations from a re-analysis of the deposited data

Results flagged for a closer look

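The change from 0 h to 24 h differed between KO and WT cells for 2 genes when the interaction was tested in edgeR (quasi-likelihood, adjusted p by the Benjamini-Hochberg method). *Pou3f1* rose less in KO cells (difference in log2 fold change of -1.94, adjusted p = 0.0029), and *Grhl2* rose more (1.12, adjusted p = 0.0044). Neither was called with only the groups compared, with length offsets or with limma. All KO libraries came from 1 clone, so the clone and the loss of *Cidea* cannot be told apart. No group held the 4 or more samples needed to test for a sample far from the others.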

How the results depend on the processing

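Of 1345 values of the 97 named genes called in KO cells, over the alternatives run, 1225 stayed called with their direction, 120 were no longer called and 0 changed direction. Numbers of changed genes moved by over 1.5 times as follows, and the cause was not tested. In KO cells (3236 genes) the count was 2037 with only the groups compared, 1772 with transcript length offsets, 1872 with limma on log2(TPM + 1), 1833 with log2(TPM + 0.1), and 1785 to 5142 with a library left out. Without KO 24 h replicate 1 (2575 genes) it was 1148 with length offsets. In WT cells (2615) it was 1319 with length offsets, 1466 and 1416 with limma and 1326 to 3543 with a library left out (1680 without WT ESC replicate 2 and 1326 without WT 24 h replicate 1). For the interaction (2 genes) it was 13 with DESeq2, 82 without a filter, 7 with at least 10 counts in every library, 6 with genes detected as a covariate and 1 to 1070 with a library left out. It was 0 with only the groups compared, with length offsets and with limma at either pseudocount, where 729, 994, 774 and 760 genes had an unadjusted p under 0.05. With the replicate number as a block, 3193, 2590 and 3 genes were called in KO, WT and the interaction. Libraries with the same number did not deviate together over all genes tested (correlation of -0.049 between KO ESCs and KO spheroids). Noise in low genes can hide a shared deviation, so this does not exclude that the numbers pair the samples.

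Among genes that did not pass in KO cells, the sign of the log2 fold change turned for *Col4a1* (0.41 with length offsets, 0.33 and 0.34 with limma at pseudocounts of 1 and 0.1), *Plin3* (0.23, 0.25 and 0.25 likewise), *Dnmt1* (-0.01 to 0.04 with 1 KO library left out) and *Pou5f1* (-0.01 to 0.12 likewise). It also turned for *Ldha* (-0.04 to 0.07 with a library left out, -0.01 with the covariate), *Pnpla2* (-0.28 to 0.04), *Crb3* (-0.95 to 0.09) and *Sox3* (-0.37 to 0.55, -0.01 with the replicate block). At the lowest levels few counts limit the comparison, most of all in KO 24 h replicate 1, which detected the fewest genes at equal depth.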
